A study of Mus musculus with 6 samples.

Results

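The genes described here encode the nuclear subunits of respiratory complex III and cytochrome c, the nuclear subunits of complex IV (cytochrome c oxidase) with 5 of its assembly factors, and ATP synthase with its inhibitor. They were taken by name from a list of 45 genes, of which 44 were measured among 18193 genes in all. Cox7b was not analysed here. Each gene was read from the probe set (a group of short probes against 1 transcript) with the highest mean over the 6 arrays among those with exactly 1 gene symbol. The 44 genes had 91 such probe sets, and 28 of them had more than 1. Atp5f1 was matched through its gene identifier and is listed on the platform as Atp5pb. The groups are complex III and cytochrome c (10 of 10 genes measured), complex IV subunits (13 of 14), complex IV assembly factors (5 of 5) and ATP synthase with its inhibitor (16 of 16).

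The samples were RNA from the apex of the mouse heart ventricles, hybridised to Affymetrix Mouse Genome 430 2.0 arrays. The 3 PR-M expressing samples came from hearts that express PR-M, a human mitochondrial progesterone receptor carried as a transgene, and the 3 PR-M non-expressing samples came from hearts labelled as not expressing it. Both groups had received 2.5 mg of progesterone in oil under the skin for 19 to 21 days, so no sample was free of the hormone. The labels do not give the promoter of the transgene, whether non-expressing animals carry it, how expression was established, or the age, sex and strain of the animals. They do not say that each array is a separate animal, so p-values measure only the spread between these samples.

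The respiratory chain moves electrons from nutrients to oxygen across the inner mitochondrial membrane. Complex III passes them from ubiquinol to cytochrome c, and complex IV passes them from cytochrome c to oxygen, and both steps drive protons out of the matrix. ATP synthase lets the protons back in through its membrane part, Fo, whose turning ring drives ATP formation in the F1 head. Heart muscle, which works without rest, holds these complexes in great amount, and muscle uses its own isoforms of several complex IV subunits in place of the general ones.

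None of the 44 genes differed between hearts with and without PR-M at an adjusted p under 0.05 (limma, Benjamini-Hochberg over all 18193 genes), where 12 genes in all, 0.066%, passed. The lowest adjusted p of a respiratory gene was 0.156, for Cox7c. At an unadjusted p under 0.05, 2 genes were higher in PR-M expressing hearts, Cox7c and Uqcrc1, and 0 were lower, against 4.85% of all genes higher and 6.56% lower. Every PR-M expressing array lay above every PR-M non-expressing array for 7 of the 44 genes, where 8.16% of all genes did so, and below for 2, where 10.8% did. The 7 are Uqcrc1, Cox7c, Cox4i1, Atp5a1, Atp5b, Atp5c1 and Atp5g3, and the 2 are Uqcr10 and Atp5g2.

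The differences, always the mean log2 value of PR-M expressing arrays minus that of PR-M non-expressing arrays, were small. Their median size was 0.047 over the 44 genes and 0.091 over all genes. The spread between replicates was narrow too, with a median pooled SD of 0.056 for the 44 genes against 0.11 for all genes. Of the 44 genes, 36 were above a log2 value of 12 on every array, where 299 of all 18193 genes were. The highest value of any probe set was 14.774. The comparison is thus with mostly dimmer genes, and whether signal near the top understates differences was not tested. For 35 genes the difference was within 0.1 of 0. The 95% interval of the difference lay within 0.5 of 0 for 43 of the 44, the exception being Cox7c, and the bounds of those 43 reached from -0.32 to 0.46. The median difference was 0.025, beside -0.019 for all genes, and 32 of the 44 differences were positive, beside 44.0% of all genes. That count depends on how arrays are scaled: it was 28 after quantile scaling and 24 after cyclic loess scaling, where the median was 0.0055, and leaving out 1 array at a time gave 25 to 36.

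**Figure D1:**
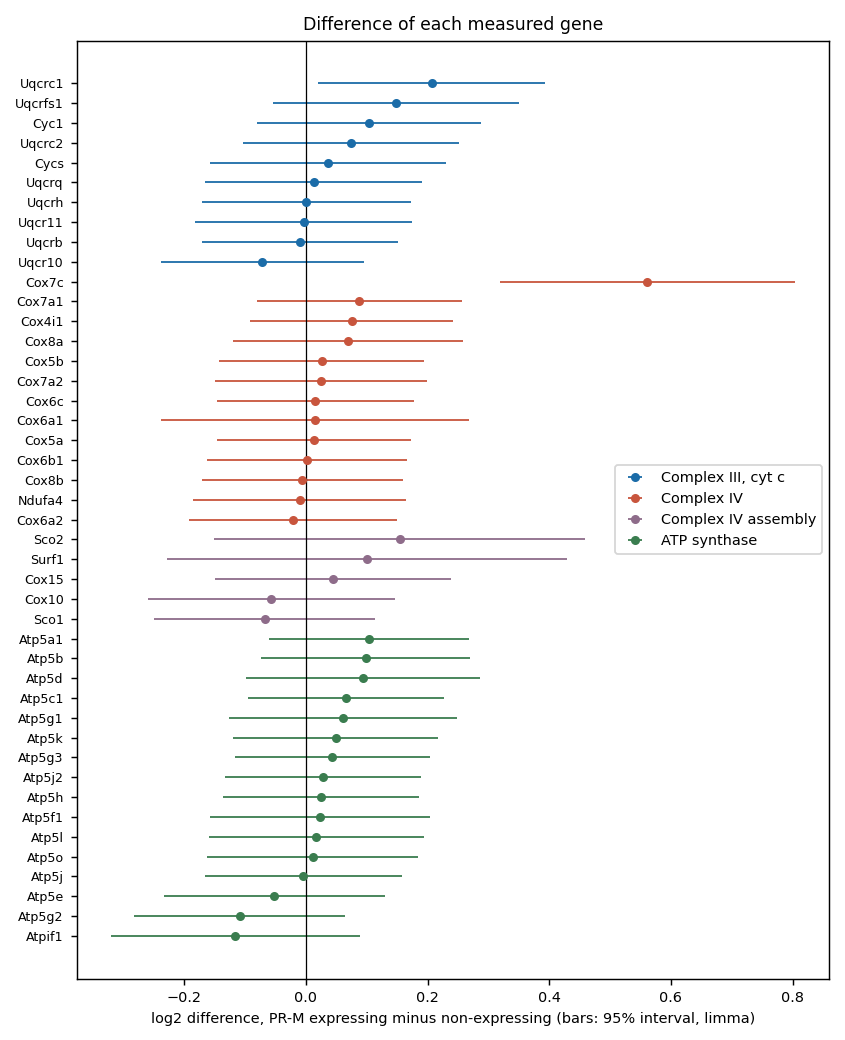
Log2 difference of each gene, PR-M expressing minus PR-M non-expressing (3 arrays each), with its 95% interval from limma, grouped by complex. All points but Cox7c lie between -0.12 and 0.21, and only the intervals of Cox7c and Uqcrc1 leave out 0.

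Some facts of the whole set of arrays bear on these values. The values are relative to the other genes of an array, and in bulk tissue fewer cells of a type and less RNA per cell cannot be told apart. The 7 markers of cardiac muscle summed to 130359 to 134970 on the linear scale in PR-M expressing hearts. In PR-M non-expressing hearts the sums were 130031 to 132963. Of these genes, 6 were above a log2 value of 12 on every array, and sums led by such bright genes cannot show that muscle content was alike. Ryr2, the dimmest, had 12.23, 11.94 and 12.18 in PR-M expressing hearts against 12.34, 11.44 and 11.52, a difference of 0.35 (limma adjusted p = 0.569). Of the 7 differences, 5 were positive. Of 6 atrial markers, 3 (Myl7, Myl4 and Sln) were higher in PR-M expressing hearts at an adjusted p under 0.05. The others did not pass the test: Nppa had a difference of 1.02 with overlapping groups, Nr2f2 one of -0.088 and Kcna5 one of -0.10. The whole list summed to 3086 to 9725 in PR-M expressing hearts against 1367 to 2705. All 6 fibroblast markers had positive differences, none past the test, and summed to 20364 to 22371 in PR-M expressing hearts against 17158 to 18907. All 4 smooth muscle markers were positive too, with sums of 1548 to 2357 against 1033 to 1925. All 6 skeletal muscle markers were negative, with sums of 182 to 202 against 207 to 224. None of these 10 genes passed the test. The skeletal muscle markers were dim, at log2 values of 3.76 to 6.21, and their detection above background was not assessed. Of 6 endothelium markers 5 were positive, with sums of 3848 to 4293 in PR-M expressing hearts against 3645 to 4029. For 6 macrophage markers, 4 of them positive, the sums were 3727 to 4148 against 3231 to 4443. For 4 fat markers, 3 of them positive, they were 864 to 987 against 906 to 1058. Emcn, Pecam1 and Mrc1 were higher on every PR-M expressing array and Cidea lower, with differences of 0.29, 0.20, 0.36 and -0.25. No gene of these 3 lists passed the test. Of all genes, 44.0% had positive differences. The 18S ribosomal RNA control averaged 8.31 ± 0.22 in PR-M expressing hearts and 9.88 ± 0.38 in PR-M non-expressing hearts (log2, SD, n = 3 each; exact permutation p = 0.1, the smallest that 3 against 3 arrays allow). The beta-actin 3′ minus 5′ value, a sign of RNA quality, was 1.20, 1.28 and 1.20 in PR-M expressing hearts against 1.43, 1.30 and 1.42 in PR-M non-expressing hearts, with no overlap (exact permutation p = 0.1). For Gapdh the 3′ minus 5′ value overlapped, averaging 0.17 in PR-M expressing hearts against 0.25 (exact permutation p = 0.3). For 18S ribosomal RNA it went the other way, averaging 1.65 in PR-M expressing hearts against 0.85 (exact permutation p = 0.1). The part of these differences in the results below was not tested. The PR-M expressing arrays share 1 title prefix, while PR-M non-expressing replicate 1 has a prefix other than that of replicates 2 and 3, so prefix and group cannot be told apart.

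Within the PR-M non-expressing group, replicate 1 stood apart for many of the respiratory genes. It lay above both other replicates for 27 of the 44 genes, where 37.7% of all genes did so, below both for 7 and between them for 10. Among the 13 complex IV subunits it was above both for 6 and below both for 5. Outside the 44 genes, replicate 1 was above both for 6 of 7 complex III assembly genes and for 0 of 6 fibroblast markers. The median of replicate 1 minus the mean of replicates 2 and 3 was 0.053 over the 44 genes and -0.0071 over all genes. Set against replicate 1 alone, the PR-M expressing mean differed by a median of -0.0024, with 22 of 44 values positive. Set against replicates 2 and 3, it differed by 0.037, with 33 of 44 positive. The sign of the median thus turned with the choice of PR-M non-expressing arrays.

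**Figure D2:**
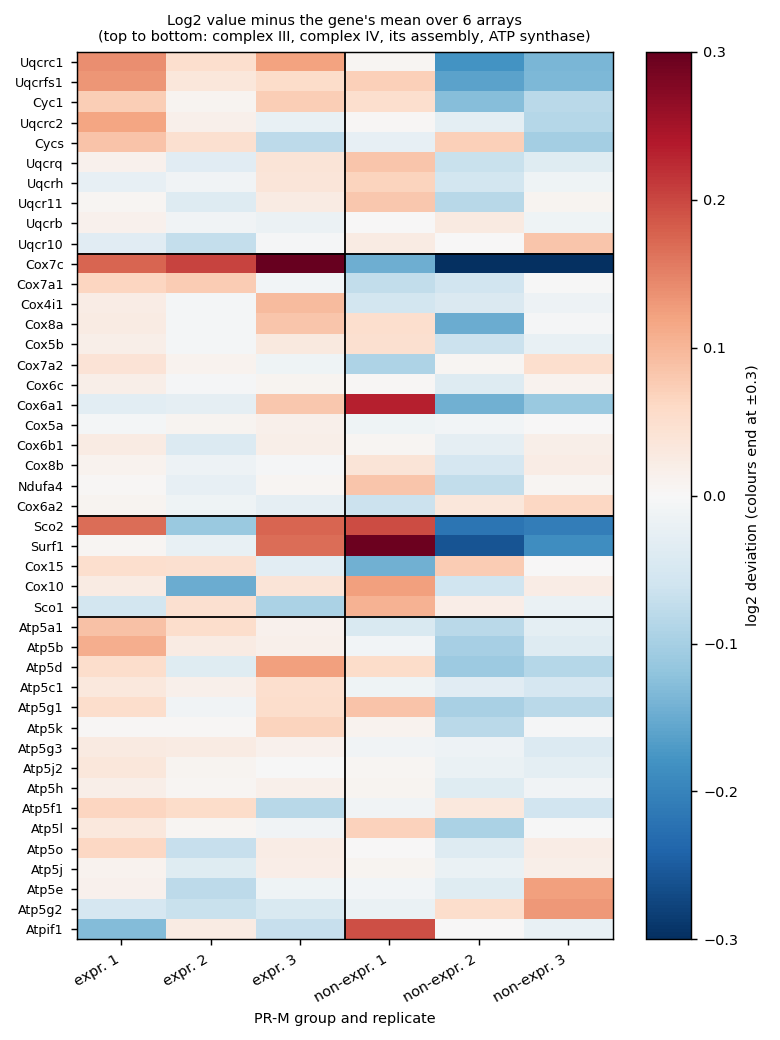
Log2 value of each gene on each array minus the gene's mean over the 6 arrays, with PR-M expressing arrays left of PR-M non-expressing arrays and the colours ending at ±0.3. Replicate 1 of the PR-M non-expressing group looks more like the PR-M expressing arrays than like replicates 2 and 3 in rows such as Uqcrfs1, Sco2 and Surf1.

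Complex III was nearly level between the groups. Its 10 genes gave a median difference of 0.024, with 7 positive, and none passed the test. All of them were bright, at log2 values of 12.96 to 14.57. The 4 genes with the lowest p-values were Uqcrc1, Uqcrfs1, Cyc1 and Uqcr10, and 3 of the 4 had positive differences.

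Uqcrc1, on chromosome 9, encodes a core protein of complex III that lies on the matrix side and is related to mitochondrial processing peptidases. Its log2 values were 13.59, 13.50 and 13.58 in PR-M expressing hearts, against 13.46, 13.27 and 13.32 in PR-M non-expressing hearts. All 3 PR-M expressing arrays lay above the others, with replicate 1 the nearest of the PR-M non-expressing arrays. The difference was 0.21 (SE 0.082, 95% interval 0.020 to 0.39, 1.15-fold), with an unadjusted p of 0.0341 and a limma adjusted p of 0.404. The sequence around its start is shown because Uqcrc1 is the bright gene with the lowest p-value, and it holds the letters of NRF1, a transcription factor known for respiratory chain genes. It runs from 120 bases before to 30 bases after the start (RefSeq, GRCm38.p6, chr9:108936528-108936677, plus strand), with the NRF1 match, GCGC followed by any base and TGCGC, in capitals, which lie after the annotated start, and a second match lies just past the end of the window.
Uqcrc1: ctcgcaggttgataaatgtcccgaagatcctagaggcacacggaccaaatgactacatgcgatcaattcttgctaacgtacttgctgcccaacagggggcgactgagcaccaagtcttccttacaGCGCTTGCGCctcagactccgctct

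Uqcrfs1 encodes the Rieske iron-sulfur protein, which takes an electron from ubiquinol. It measured 13.50, 13.40 and 13.42 in PR-M expressing hearts, against 13.44, 13.21 and 13.23 in PR-M non-expressing hearts. The groups overlapped through replicate 1 of the PR-M non-expressing group, which was 0.22 above the mean of its other replicates. The difference was 0.15 (SE 0.088, limma adjusted p = 0.550). Cyc1 encodes cytochrome c1, the next electron carrier, and had 13.16, 13.09 and 13.16 in PR-M expressing hearts against 13.13, 12.96 and 13.00. Its pattern was the same, with replicate 1 inside the range of the PR-M expressing arrays, and its difference was 0.10 (SE 0.080, limma adjusted p = 0.649).

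Uqcr10, a small subunit, went the other way. Its values were 13.05, 13.01 and 13.08 in PR-M expressing hearts against 13.10, 13.08 and 13.16 in PR-M non-expressing hearts, all 3 of the first lying below the second by a narrow margin. The difference was -0.072 (SE 0.073, limma adjusted p = 0.742), and a second, much dimmer probe set was also lower on every PR-M expressing array, by a difference of -0.10. Another dim probe set of Uqcr10 differed by -0.020, and its groups overlapped. Uqcrq, another small subunit, had a difference of 0.013 (limma adjusted p = 0.967), which turned to -0.0046 under cyclic loess scaling. A much dimmer probe set of Uqcrq had 6.70, 6.72 and 6.76 in PR-M expressing hearts against 6.86, 6.82 and 6.84, so it lay lower on every PR-M expressing array while the bright one overlapped. The remaining probe sets of Uqcrq, dimmer still, went the other way with differences of 0.27 and 0.050, and their groups overlapped. The other 5 genes, Uqcrc2, Cycs, Uqcrb, Uqcr11 and Uqcrh, differed by -0.010 to 0.074 with adjusted p-values of 0.750 and above. Cycs, which encodes cytochrome c itself, and Uqcrh, the hinge protein that helps it dock, were among these.

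Complex IV subunits were closest to no difference. The 13 measured genes had a median difference of 0.016, which became -0.0029 under cyclic loess scaling, and 10 of them were positive. Apart from Cox7c all lay between -0.021 and 0.088. Cox4i1, the general isoform of subunit 4, through which ATP is known to slow the enzyme, had 14.15, 14.12 and 14.23 in PR-M expressing hearts against 14.08, 14.09 and 14.12 in PR-M non-expressing hearts. The groups did not overlap but nearly touched, and the difference was 0.075 (SE 0.073, limma adjusted p = 0.728). Ndufa4, long assigned to complex I and later placed in complex IV, measured 13.95, 13.93 and 13.95 in PR-M expressing hearts against 14.03, 13.88 and 13.96. Its groups overlapped fully, with a difference of -0.010 (limma adjusted p = 0.974) that was 0.0074 with array weights. The 4 subunits Cox5a, Cox5b, Cox6b1 and Cox6c differed by 0.0020 to 0.026 with adjusted p-values of 0.921 and above.

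Cox7c, a small subunit, had the greatest difference of the 44 genes, and it was read from a dim probe set. The values were 6.75, 6.77 and 7.04 in PR-M expressing hearts, against 6.42, 6.18 and 6.27 in PR-M non-expressing hearts. The groups did not overlap. The difference was 0.56 (SE 0.11, 95% interval 0.32 to 0.80, 1.48-fold), with an unadjusted p of 6.19e-04 and a limma adjusted p of 0.156. The other Cox7c probe set, dimmer still at 3.92, 3.89 and 4.12 in PR-M expressing hearts against 3.90, 3.59 and 3.46, gave a difference of 0.33, and its groups overlapped. Of the 13 complex IV subunits measured, Cox7c was the only one read below a log2 value of 7.5 on every array.

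The heart and general isoforms of complex IV had small differences, and none of the 6 genes passed the test. Cox6a2, Cox7a1 and Cox8b are the heart and skeletal muscle forms of subunits 6a, 7a and 8, and Cox6a1, Cox7a2 and Cox8a are the forms found in most tissues. Cox6a2 had 14.11, 14.09 and 14.07 in PR-M expressing hearts against 14.03, 14.13 and 14.16, a difference of -0.021 (limma adjusted p = 0.939). Cox6a1 had 13.06, 13.07 and 13.17 in PR-M expressing hearts against 13.33, 12.95 and 12.98, a difference of 0.015 (limma adjusted p = 0.974). In Cox6a1 replicate 1 of the PR-M non-expressing group was the highest of all arrays, 0.36 above the mean of its other replicates, and the PR-M expressing arrays lay between.

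Cox7a1 measured 13.63, 13.64 and 13.56 in PR-M expressing hearts against 13.49, 13.51 and 13.56 in PR-M non-expressing hearts. Cox7a2 measured 14.05, 14.02 and 14.00 in PR-M expressing hearts against 13.92, 14.01 and 14.06. Both overlapped, with differences of 0.088 (limma adjusted p = 0.681) and 0.025 (limma adjusted p = 0.928). Cox8b had 13.78, 13.76 and 13.77 in PR-M expressing hearts against 13.81, 13.72 and 13.79, and Cox8a had 10.99, 10.96 and 11.05 against 11.02, 10.82 and 10.96. These too overlapped, with differences of -0.0060 (limma adjusted p = 0.985) and 0.069 (limma adjusted p = 0.788). Without PR-M non-expressing replicate 2 the Cox8a difference was 0.011.

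The change of each heart isoform relative to its general partner was taken as the heart minus the general log2 value within each array. That value shows unequal change only, since levels of different probe sets cannot be compared. For Cox6a2 minus Cox6a1 it averaged 0.99 ± 0.079 in PR-M expressing hearts and 1.02 ± 0.27 in PR-M non-expressing hearts, a difference of -0.036 (SD, n = 3 each; exact permutation p = 1, adjusted over the 3 pairs 1). For Cox7a1 minus Cox7a2 it averaged -0.41 ± 0.031 in PR-M expressing hearts and -0.48 ± 0.045 in PR-M non-expressing hearts, a difference of 0.063 (exact permutation p = 0.2, adjusted 0.3). For Cox8b minus Cox8a it averaged 2.77 ± 0.043 in PR-M expressing hearts and 2.84 ± 0.056 in PR-M non-expressing hearts, a difference of -0.075 (exact permutation p = 0.2, adjusted 0.3). The groups overlapped in all 3 pairs with these probe sets, and 3 against 3 arrays could not give a p below 0.1. Over all combinations of probe sets, those just given included, the differences were -0.20 to -0.018 over the 4 for the first pair. They were 0.063 to 0.084 over the 2 for the second, and -0.10 to -0.075 over the 3 for the third. With a second Cox8a probe set, Cox8b minus Cox8a was 2.83, 2.84 and 2.78 in PR-M expressing hearts against 2.90, 2.90 and 2.90 in PR-M non-expressing hearts. There the groups did not overlap, with a difference of -0.079 (exact permutation p = 0.1, the smallest possible, not adjusted).

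**Figure D3:**
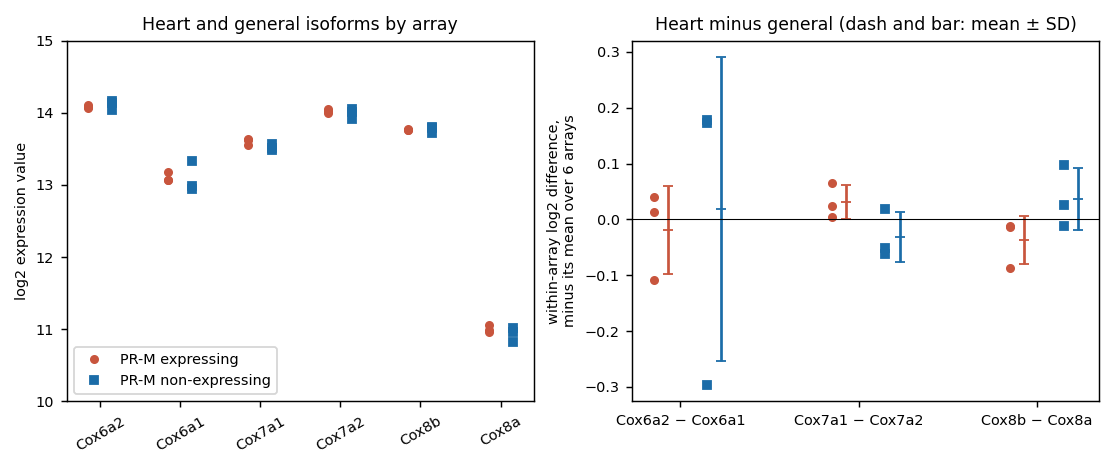
Complex IV isoforms on each array, PR-M expressing left of PR-M non-expressing: the log2 values of heart and general isoforms, and the heart minus general value within each array. In all 3 pairs, with the probe sets plotted, the 2 groups overlap.

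The starts of Cox8b and Cox8a are shown because this pair of heart and general isoforms differs in promoter letters. The Cox8b window (RefSeq, GRCm38.p6, chr7:140900417-140900566, minus strand) holds the TATA letters, TATAAA, which here lie just after the annotated start, and the Cox8a window (chr19:7217587-7217736, minus strand) holds a match to CCGGAAG, read as its reverse complement, the letters of GABP, which binds many respiratory chain genes. Capitals mark the matches, a second Cox8a match lies just past the end, and both windows run from 120 bases before to 30 bases after the start.
Cox8b: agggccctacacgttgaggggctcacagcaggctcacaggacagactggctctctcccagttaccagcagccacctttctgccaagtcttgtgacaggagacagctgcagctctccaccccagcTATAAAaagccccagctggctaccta
Cox8a: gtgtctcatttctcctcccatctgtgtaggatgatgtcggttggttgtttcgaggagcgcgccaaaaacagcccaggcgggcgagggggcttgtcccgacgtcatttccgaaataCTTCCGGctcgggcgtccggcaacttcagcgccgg

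The complex IV assembly factors were dimmer than most subunits, at 6.55 to 9.79, and noisier, with a median pooled SD of 0.098. Their 5 differences had a median of 0.045, which was -0.062 without probe sets named _x_at or _s_at, and 3 were positive. Sco2, which delivers copper to the enzyme, had 8.27, 7.99 and 8.28 in PR-M expressing hearts against 8.30, 7.88 and 7.89, a difference of 0.15 (SE 0.13, limma adjusted p = 0.694). Surf1, needed for early assembly and mutated in human Leigh syndrome, had 9.47, 9.44 and 9.63 in PR-M expressing hearts against 9.76, 9.21 and 9.28, a difference of 0.10 (SE 0.14, limma adjusted p = 0.825). In both genes replicate 1 of the PR-M non-expressing group was the highest of the 6 arrays, by 0.41 for Sco2 and 0.52 for Surf1 over the mean of its other replicates, and without it the Sco2 difference was 0.29 and that of Surf1 0.27.

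Sco1, the partner of Sco2 in copper delivery, measured 6.59, 6.69 and 6.55 in PR-M expressing hearts against 6.75, 6.67 and 6.63, with a difference of -0.068 (limma adjusted p = 0.784). Cox10, which makes heme O, measured 9.70, 9.52 and 9.71 in PR-M expressing hearts against 9.79, 9.61 and 9.69, with a difference of -0.057 (limma adjusted p = 0.843). Both overlapped between the groups. Cox15, which turns heme O into heme A, had 8.29, 8.28 and 8.21 in PR-M expressing hearts against 8.09, 8.31 and 8.24, a difference of 0.045 (limma adjusted p = 0.875). Its probe sets disagreed. One had 8.05, 8.02 and 7.83 in PR-M expressing hearts against 8.05, 8.22 and 8.20, a difference of -0.19, and a dim one had 5.67, 5.29 and 5.35 against 4.92, 5.19 and 5.16, a difference of 0.35. Neither passed the test over probe sets, and no direction can be given for Cox15.

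The ATP synthase genes had a median difference of 0.027, with 12 of 16 positive and none past the test. The 5 genes of the F1 head and its central stalk had a median of 0.093, with 4 positive, and the 10 genes of Fo and the outer stalk had a median of 0.024, with 8 positive. The difference between the 2 parts was not tested. The median of all 16 genes was 0.0076 under cyclic loess scaling.

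Atp5a1 and Atp5b encode the alpha and beta subunits, which form the F1 ring and hold the catalytic sites. Atp5a1 had 13.96, 13.93 and 13.89 in PR-M expressing hearts against 13.83, 13.79 and 13.84 in PR-M non-expressing hearts, a difference of 0.10 (SE 0.072, limma adjusted p = 0.611). Atp5b had 13.90, 13.81 and 13.80 in PR-M expressing hearts against 13.78, 13.69 and 13.75, a difference of 0.098 (SE 0.075, limma adjusted p = 0.645). In both genes all PR-M expressing arrays were above all others by a small margin. Atp5c1, the gamma subunit that turns inside the ring, had 14.14, 14.13 and 14.16 in PR-M expressing hearts against 14.10, 14.08 and 14.06, a difference of 0.065 (SE 0.071, limma adjusted p = 0.758). Its dim second probe set had 6.58, 6.28 and 6.29 in PR-M expressing hearts against 5.92, 5.61 and 5.87, a difference of 0.59 with a limma adjusted p of 0.157 over probe sets. Both separated the groups, yet the sizes of their differences were far apart.

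Atp5g1, Atp5g2 and Atp5g3 encode the same mature subunit c of the turning Fo ring, from 3 genes. Atp5g3 had 14.28, 14.28 and 14.27 in PR-M expressing hearts against 14.24, 14.24 and 14.21, a difference of 0.043 (SE 0.070, limma adjusted p = 0.851). Atp5g2 had 12.47, 12.46 and 12.48 in PR-M expressing hearts against 12.50, 12.58 and 12.66, a difference of -0.11 (SE 0.076, limma adjusted p = 0.611). These genes had no overlap between groups and opposite signs. Atp5g1 had 13.57, 13.50 and 13.57 in PR-M expressing hearts against 13.60, 13.42 and 13.44, and overlapped. The start of Atp5g3 (RefSeq, GRCm38.p6, chr2:73911297-73911446, minus strand) is shown because, of the 36 genes searched, only Atp5g3 held the letters of ERR. ERR is a nuclear receptor known for its role in heart energy genes. Capitals mark TCAAGGTCA, found as its reverse complement, and an NRF1 match nearer the start.
Atp5g3: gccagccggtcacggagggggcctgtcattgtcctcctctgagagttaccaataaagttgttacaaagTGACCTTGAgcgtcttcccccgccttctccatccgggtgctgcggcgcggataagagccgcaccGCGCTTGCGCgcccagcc

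Atpif1 encodes the inhibitor that stops ATP synthase from running backwards and using up ATP. It had 11.30, 11.46 and 11.36 in PR-M expressing hearts against 11.63, 11.43 and 11.41 in PR-M non-expressing hearts, a difference of -0.12 (SE 0.090, limma adjusted p = 0.649). The groups overlapped, with replicate 1 of the PR-M non-expressing group the highest array, and without it the difference was -0.048. The other 10 genes of ATP synthase, Atp5d, Atp5e, Atp5f1, Atp5g1, Atp5h, Atp5j, Atp5j2, Atp5k, Atp5l and Atp5o, differed by -0.052 to 0.093 with adjusted p-values of 0.704 and above, and 8 of the 10 were positive. Among them Atp5o encodes the oligomycin sensitivity protein that ties F1 to the outer stalk.

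The other probe sets of these genes gave the same picture of small differences. Of 47 further probe sets of 28 genes, 34 had a positive difference, and 34 had the sign of the probe set used for the gene. Over all 91 probe sets 0 passed an adjusted p of 0.05 (limma over 45037 probe sets, of which 0.0133% passed), and 5 were higher and 0 lower at an unadjusted p under 0.05, where 5.86% and 6.37% of all probe sets were. Every PR-M expressing array was above every other for 12 of the 91 and below for 5, where 8.27% and 10.3% of all probe sets were. A positive difference was found for 66 of the 91 and for 44.4% of all probe sets. The 3 further probe sets past a difference of 0.3 in either direction, those of Atp5c1, Cox7c and Cox15, were dim. The median size of the difference was 0.073 for the 21 member probe sets below 7.5 on every array and 0.044 for the others.

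**Figure D4:**
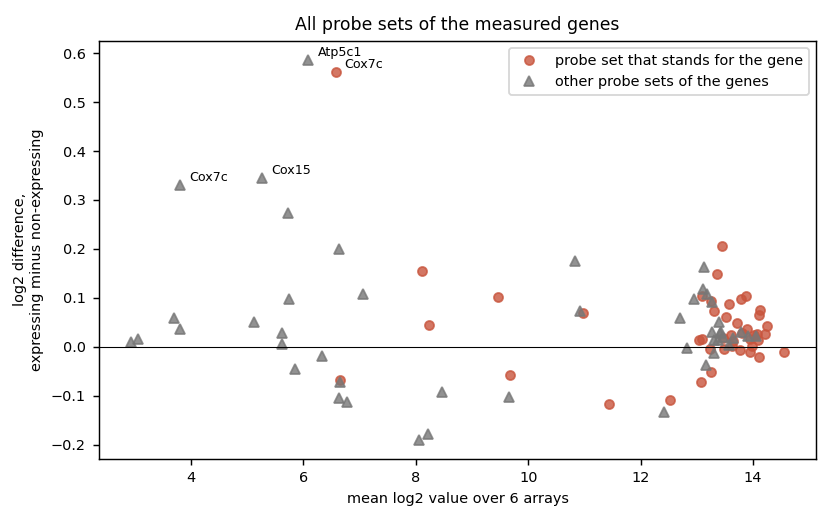
Log2 difference of each of the 91 probe sets, PR-M expressing minus PR-M non-expressing, against its mean log2 level over the 6 arrays. Bright probe sets lie close to 0, and the points past 0.3 are all dim.

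Promoter letters were searched in the 300 bases from 250 before to 50 after the start, on both strands, for the 36 genes with an entry in the RefSeq table of GRCm38.p6, and in all 27025 genes of that table. The NRF1 letters were in 9 of the 36, 25.0%, against 5.19% of all genes in that table. The GABP letters CCGGAAG were in 14, 38.9%, against 9.93%. AAGATGGCG, the letters of YY1, were in 3, 8.33%, against 1.64%, and the ERR letters were in 1, 2.78%, against 0.466%. TATAAA was in 3, Atp5l, Cox10 and Cox8b, 8.33%, against 15.7%. A match is a description of letters and not a binding site. The 20 genes with NRF1 or GABP letters had a median difference of 0.013, and the 16 without had 0.032.

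Genes around these complexes were read from the same fit, and none passed the test. Of the 7 genes listed around ATP export and phosphate import, the creatine kinase Ckmt2 included, all 7 had positive differences, with a median of 0.21. Of all genes, 44.0% had positive differences. At an unadjusted p under 0.05 (limma), 4 of the 7 were higher, against 4.85% of all genes. Slc25a3, the phosphate carrier that feeds ATP synthase, had 13.76, 13.66 and 13.68 in PR-M expressing hearts against 13.49, 13.45 and 13.46, a difference of 0.23 (SE 0.073, limma adjusted p = 0.340). Vdac2, a pore of the outer membrane, had 12.90, 12.73 and 12.77 in PR-M expressing hearts against 12.62, 12.44 and 12.52, a difference of 0.27 (limma adjusted p = 0.340). Both separated the groups on every array. Slc25a4, the main ATP/ADP carrier of heart, had a difference of only 0.020.

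All 4 subunits of complex II, which feeds electrons from succinate to ubiquinone, had positive differences, with a median of 0.17. Among all genes, 44.0% did. Sdhc and Sdhd, its membrane anchors, had differences of 0.26 and 0.20 with adjusted p-values of 0.348 and 0.405. The 7 complex III assembly genes had a median of -0.087. At an unadjusted p under 0.05 (limma), 3 of the 7, Lyrm7, Uqcc2 and Bcs1l, were lower, against 6.56% of all genes. The differences of these 3 were -0.21, -0.22 and -0.21, with limma adjusted p-values of 0.411, 0.421 and 0.430. The 14 further complex IV assembly genes measured had a median of -0.11, with 4 of 14 positive. Among them Lrpprc, which stabilises mitochondrial messenger RNA, had a difference of 0.30 and Cox17, a copper chaperone, one of 0.23, with limma adjusted p-values of 0.340 and 0.344. These were the 2 lowest p-values of a list in which 10 genes had negative differences. After the values were seen, genes of the list that lay lower on every PR-M expressing array were added. These were 5 of the 14, against 10.8% of all genes: Pet100, Cox16, Coa3, Coa7 and Coa6. Their differences were -0.24, -0.16, -0.13, -0.12 and -0.10. Lrpprc and Cox17 were the 2 of the 14 that lay higher on every PR-M expressing array, against 8.16% of all genes. Pet100 was the only gene of the list lower at an unadjusted p under 0.05 (limma adjusted p = 0.352). For Cox17 the difference was -0.073 without probe sets named _x_at or _s_at, which can bind related transcripts.

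Of 8 regulators of mitochondrial genes 6 were positive, against 44.0% of all genes, with a median of 0.066. Tfam, which packages and transcribes mitochondrial DNA, had a difference of 0.29 (limma adjusted p = 0.365). Gabpa, a subunit of GABP, had one of 0.21 (limma adjusted p = 0.404). With the mean of all its probe sets the Gabpa difference was 0.013 (limma adjusted p = 0.957). The 7 other complex IV isoforms and associated genes had a median of 0.039, with -0.21 for Higd2a (limma adjusted p = 0.366) and 0.17 for Cox7b2 (limma adjusted p = 0.686). The 5 ATP synthase assembly and associated genes had a median of -0.028, with 0.18 for Tmem70 (limma adjusted p = 0.514) and 0.10 for Dmac2l (limma adjusted p = 0.741). The subunits that mitochondrial DNA encodes were not analysed here.

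**Figure D5:**
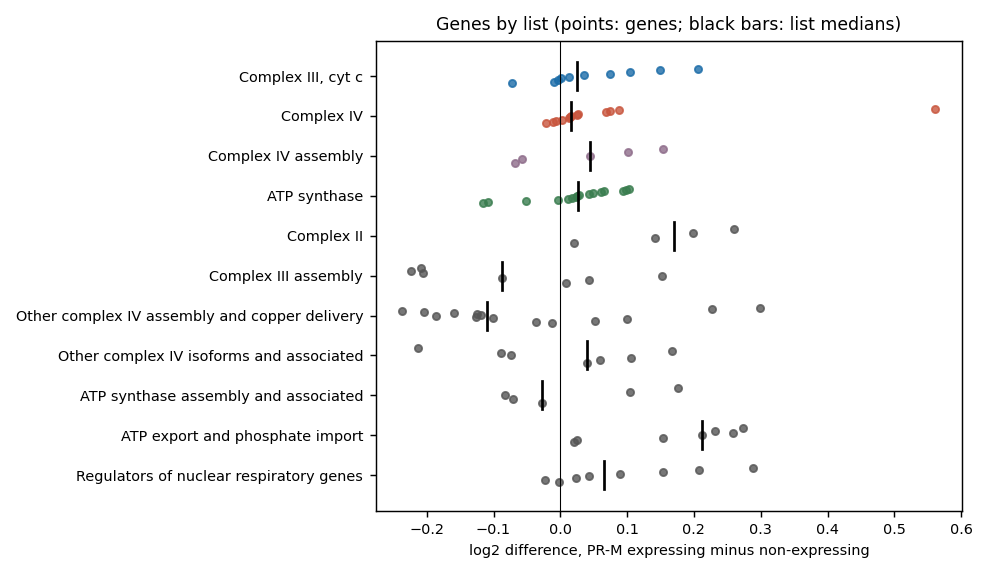
Log2 difference of each gene, PR-M expressing minus PR-M non-expressing, by group of respiratory genes and by the lists around them, with the median of each list. The 4 groups of respiratory genes centre near 0. The complex II genes and those around ATP export lie above it. Of the 14 further complex IV assembly genes 10 lie below. The complex III assembly genes lie on both sides, with 4 of 7 below, and 44.0% of all genes had positive differences.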

How the data were processed

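Log2 values for each probe set were deposited by the authors, whose processing notes name RMA and Partek 6.6 (settings not given in the sources used here). Values of the same rank differed by up to 0.155 between arrays, so arrays had been brought to nearly the same distribution, and a change common to all genes cannot be seen. Array medians were 5.776 to 5.786. The number of arrays limits the precision.

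Of 45101 probe sets, 64 controls were left out. The linear model of limma 3.58.1 (R 4.3.3, lmFit and eBayes, two-sided) was fitted over the other 45037, 3 PR-M expressing against 3 PR-M non-expressing arrays, with 4.48 prior and 4 residual degrees of freedom. Each gene was then given its probe set with the highest mean, and p-values were adjusted over 18193 genes (Benjamini-Hochberg, threshold 0.05). Isoform pairs and controls were compared by exact permutation tests. Group medians are descriptions with no test. Replicates were numbered in record order.

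Genes were named in the text by rule: the 4 lowest p-values of each group, the isoforms, Cox4i1, Ndufa4, genes whose groups did not overlap, and genes whose probe sets disagreed, with the 2 lowest p-values of each list around the complexes. Slc25a4, Bcs1l and others of those lists were named after their values were seen. The members and lists were chosen with earlier results of these data known. Alternatives covered scaling, dim probe sets, the variance prior, array weights, title prefix as a random block (correlation 0.117), the choice of probe set and leaving out each array. Counts of positive differences under the alternatives were added after the data had been seen.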

Additional observations from a re-analysis of the deposited data

How the results depend on the processing

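No respiratory gene passed an adjusted p of 0.05 under any alternative run on the gene calls, the title prefix as a random block and ordinary least squares included, and 0 probe sets of these genes passed. At an adjusted p of 0.1 none passed in the fit reported, while Cox7c was below it with array weights (0.0780) and with a trend and robust prior (0.0897). Its difference was 0.47 to 0.63 without 1 array and 0.33 without _x_at and _s_at probe sets. Of 621 values of the genes named by rule under the alternatives, 599 kept their sign and 22 turned it; the cause was not tested.

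The sign turned under cyclic loess for Cox6a1 (-0.0029) and Uqcrq (-0.0046), with array weights for Cox7a2 (-0.0020) and Ndufa4 (0.0074), and without _x_at and _s_at probe sets for Cox15 (-0.19), Uqcrq (-0.11) and Cox17 (-0.073). Leaving out each array in turn gave -0.10 to 0.0032 for Cox10, -0.016 to 0.094 for Cox15, -0.053 to 0.13 for Cox6a1, -0.059 to 0.0039 for Cox6a2, -0.016 to 0.056 for Cox7a2, -0.033 to 0.012 for Cox8b, -0.050 to 0.029 for Ndufa4, -0.0038 to 0.27 for Surf1 and -0.017 to 0.059 for Uqcrq. With the sign kept, it moved others by over 1.5 times: Atpif1 ranged from -0.16 to -0.048, Sco2 from 0.083 to 0.29, Cox8a from 0.011 to 0.11, Sco1 from -0.11 to -0.033, Cox4i1 from 0.046 to 0.097, Cyc1 from 0.066 to 0.16, Atp5g2 from -0.15 to -0.071, Uqcr10 from -0.090 to -0.048, Cox7b2 from 0.021 to 0.32, Dmac2l from 0.0044 to 0.20 and Tmem70 from 0.092 to 0.22. For the change of Cox6a2 minus that of Cox6a1 it gave -0.19 to 0.044.

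The median of the complex IV assembly factors was -0.062 without _x_at and _s_at probe sets. The median of the ATP synthase genes was 0.0076 under cyclic loess and 0.021 to 0.044 without 1 array, the highest without PR-M non-expressing replicate 1. The median of complex III was -0.0015 to 0.047 without 1 array. No paired analysis was possible because the labels give the groups no shared replicate numbers. Detection above background was not assessed here, which limits the dim probe sets, those of Cox7c included.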
